A study of Rattus norvegicus with 6 samples.

Results

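The genes described here are the uncoupling proteins (Ucp1, Ucp2, Ucp3), the beta-adrenergic receptors Adrb1 and Adrb3, the deiodinase Dio2, the transcriptional regulators Ppargc1a and Prdm16, and the lipid droplet protein gene Cidea. They were taken by name from a table of 22050 annotated rat genes, in which 8 of the 9 had a row, each with a single row. Dio2 is not analysed here. The series set out to link cold and arthritis by comparing rats kept at low and at normal temperature. It holds 6 RNA-seq libraries of subchondral bone, the bone under the joint cartilage, with the titles S10, S12 and S13 and S20, S21 and S23. The labels give no temperature, strain, age or treatment for any of them, so none was placed in a group and no effect of cold was tested. Each gene is described by its level in every library, as the deposited FPKM, which adjusts for transcript length and library size, and as the raw count behind it. Genes with a median of 1 FPKM or more over the 6 libraries are termed expressed genes, of which there were 11625.

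Brown and beige adipocytes make heat by letting protons leak back across the inner mitochondrial membrane through UCP1. In cold, sympathetic nerves release noradrenaline, which acts on beta-adrenergic receptors and, through cAMP and protein kinase A, drives fat breakdown and raises PGC-1alpha (Ppargc1a), type 2 deiodinase (Dio2) and UCP1. PRDM16 sets the brown and beige fat fate, and CIDEA sits on lipid droplets and is widely used as a marker of these cells. UCP2 and UCP3 are related mitochondrial carriers that are not held to be main heat producers. UCP2 is widely expressed, with much of it in immune cells, and UCP3 is best known from skeletal muscle and brown fat. Sympathetic nerves reach the bone, and its marrow holds adipocytes of its own.

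Promoters of 4 of these genes are shown, because the 3 uncoupling proteins lay at very different levels in this tissue and because Ppargc1a holds the element through which cAMP acts. The RefSeq promoter table of the build GRCr8 covered 8 of the 9 genes. Each sequence is 300 bases long, 250 before the annotated start and 50 from it onward, read 5′ to 3′ on the gene's strand. Capitals mark a TATA box (TATAAA) or a full cAMP response element (TGACGTCA), both searched on either strand. The windows are chr19:41721372-41721671 (minus strand), chr1:164251123-164251422 (plus), chr1:164227660-164227959 (plus) and chr14:63634058-63634357 (plus).
Ucp1: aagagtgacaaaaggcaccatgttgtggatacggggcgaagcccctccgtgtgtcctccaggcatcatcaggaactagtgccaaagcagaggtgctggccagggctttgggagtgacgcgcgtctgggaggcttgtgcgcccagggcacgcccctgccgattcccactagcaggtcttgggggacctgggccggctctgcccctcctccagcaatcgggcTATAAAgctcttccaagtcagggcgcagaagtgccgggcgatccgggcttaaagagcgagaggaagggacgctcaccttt
Ucp2: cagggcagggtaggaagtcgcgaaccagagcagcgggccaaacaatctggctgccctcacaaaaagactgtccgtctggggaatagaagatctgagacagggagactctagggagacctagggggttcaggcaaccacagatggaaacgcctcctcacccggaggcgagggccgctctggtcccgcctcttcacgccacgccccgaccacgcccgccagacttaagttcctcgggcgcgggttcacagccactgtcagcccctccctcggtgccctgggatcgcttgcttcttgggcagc
Ucp3: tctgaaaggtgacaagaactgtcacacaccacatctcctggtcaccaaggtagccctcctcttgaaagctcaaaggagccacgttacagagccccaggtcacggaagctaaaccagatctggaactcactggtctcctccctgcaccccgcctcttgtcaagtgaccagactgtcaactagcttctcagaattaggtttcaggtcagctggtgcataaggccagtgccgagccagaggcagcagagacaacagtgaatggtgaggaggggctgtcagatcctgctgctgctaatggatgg
Ppargc1a: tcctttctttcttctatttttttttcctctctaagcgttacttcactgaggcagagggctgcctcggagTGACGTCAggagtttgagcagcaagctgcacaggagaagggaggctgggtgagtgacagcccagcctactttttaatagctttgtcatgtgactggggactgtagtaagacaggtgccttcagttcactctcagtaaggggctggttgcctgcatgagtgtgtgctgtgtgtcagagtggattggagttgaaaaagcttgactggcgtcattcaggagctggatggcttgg

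Ucp1 had a TATA box starting at -30 relative to its start site, a motif that 14.2% of 33469 such promoters hold, and Ucp2 and Ucp3 had none in these windows. The cAMP response element of Ppargc1a began at -181, and 1.83% of the promoters hold one. CpG pairs numbered 17 in Ucp1, 19 in Ucp2, 4 in Ucp3 and 4 in Ppargc1a, and among the others 28 in Adrb1, 23 in Cidea, 20 in Prdm16 and 4 in Dio2. Of 7768 measured genes with 15 or more CpG pairs in this window, 78.7% were expressed in the bone, against 30.6% of 2352 genes with 0 to 4. Ucp1, with 17 pairs, had no reads, and Ucp3, with 4, was at 1.09 FPKM.

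Ucp2 was by far the highest of the set, and Ucp1 was not detected. Of the 8 measured genes 3 (Ucp2, Cidea and Ucp3) were expressed at a median of 1 FPKM or more, as were 52.7% of all annotated genes. Below them came Adrb3 at a median of 0.555 FPKM, Adrb1 at 0.323 FPKM, Ppargc1a at 0.0506 FPKM and Prdm16 at 0.0220 FPKM. Ucp2 stood above the other genes in 6 of 6 libraries, and Adrb1 above Ppargc1a in 6 of 6, whereas the other neighbours among the detected genes crossed. Cidea was above Ucp3 in 4 libraries and below it in 2, Ucp3 above Adrb3 in 5 of 6, and Adrb3 above Adrb1 in 5 of 6. The plot of the levels on a log axis shows this order.

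**Figure D1:**
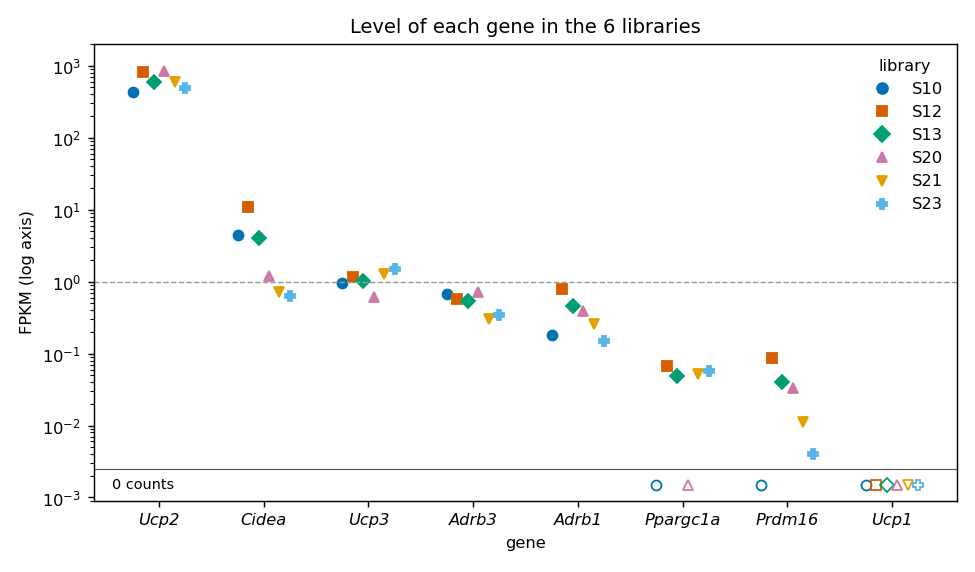
FPKM (log axis) of the 8 measured genes, ordered by median, in each of the 6 libraries. Each symbol is 1 library, the dashed line marks 1 FPKM, and open symbols in the strip at the bottom are libraries with 0 counts. Ucp2 lies between 430.2 and 856 FPKM, and all 6 Ucp1 symbols are in the strip of 0 counts.

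Ucp1, the heat-producing carrier of brown fat, was without a single count in 6 of 6 libraries. Up to 3 counts are allowed by such a 0, which equals 0.0507 CPM (counts scaled to a library of 1000000) in S21, the deepest library, and 0.0750 CPM in S10, the shallowest. Of all annotated genes, 20.6% likewise had no count in any library. The genes on either side of Ucp1 in the RefSeq table were read, Elmod2 at 1.05 to 2.87 FPKM and Tbc1d9 at 0.814 to 2.21 FPKM.

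Ucp2, the carrier common in immune cells, stood at 856 FPKM in S20 and 809 in S12, at 598 in S21 and 594 in S13, and at 489.6 in S23 and 430.2 in S10, from 30234 to 62609 counts. S12 and S20 were high, S10 and S23 low, and S13 and S21 lay between and close together. The median of 596 FPKM was above that of 99.4% of annotated genes. The highest library was 1.99-fold above the lowest, a range of 0.99 in log2(FPKM + 1), and 37.4% of expressed genes had a larger range. Exact 95% Poisson intervals of the counts, carried to the FPKM scale, did not overlap in 14 of the 15 pairs of libraries, the exception being S13 and S21. These intervals cover counting error only and are not a test between animals. In this bulk tissue, fewer cells of a type and less RNA per cell cannot be told apart. With TMM or median-ratio scaling, which set libraries equal over most genes, S20 stayed the highest for Ucp2 and the lowest moved from S10 to S23.

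Markers of the blood lineages of the marrow differed in how they were spread beside Ucp2. Summed over 8 neutrophil markers, S23 had 75087 FPKM and S20 17650, so Ucp2 was highest where this sum was lowest. S100a8 and S100a9 carried most of the sum, with 4299 and 8517 FPKM in S20. Mpo and Cxcr2 were instead lowest in S10, where Ucp2 was lowest, and Ngp was lowest in S12. The other neutrophil markers, S100a8 and S100a9 included, were lowest in S20. The 7 macrophage markers summed to 426 FPKM in S20 and 657 in S12, both libraries with high Ucp2. Summed FPKM of 6 T and NK cell markers ran from 240.2 (S20) to 437 (S23). Nkg7 carried most of this sum, with 200.5 FPKM in S20 and 401.7 in S23. No other member was highest in S23. Cd3d and Cd3e were highest in S10, and Cd4, Cd8a and Lck in S12. Summed FPKM of 5 B cell markers ran from 54.4 (S21) to 165 (S12). The 6 measured red cell markers summed to 120242 FPKM in S23 and 324136 in S10, sums carried almost wholly by the globins Hbb and Hba-a1. The other red cell genes were highest in S20, where Ucp2 was highest. Slc4a1, the anion exchanger of the red cell membrane, had 646 FPKM in S20, 403 in S12, 259 in S21, 249 in S13, 186 in S23 and 151 in S10, the same order of libraries as Ucp2. Epb42, a membrane skeleton protein, and Tfrc, the transferrin receptor, were likewise highest in S20, at 74.3 and 313 FPKM, and lowest in S10 and S23. Alas2 was also highest in S20, at 931 FPKM, and lowest in S23, at 396. It was not low in S10, where it had 760 FPKM beside 780 in S12 and 770 in S13. Hbb and Hba-a1 were both highest in S10, where Ucp2 was lowest. S10 was the lowest library for 60.1% of all expressed genes. Long transcripts differed between libraries too. Over 1944 genes of 4000 to under 8000 bases the median deviation in log2(FPKM + 1) was -0.59 in S10, 0.32 in S12 and 0.32 in S20. It was -0.08 in S13, -0.07 in S21 and 0.05 in S23. Slc4a1, Epb42 and Tfrc had more counts per FPKM than Alas2, so their transcripts are longer. Counts and FPKM imply a length of 1739 to 1802 bases for Ucp2, below this class. The part of cell makeup in the Ucp2 values was not tested, nor that of length in the red cell values.

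Carriers related to the uncoupling proteins were mostly present. Of 6 such genes 5 were expressed, beside 52.7% of all annotated genes. Of these 5, 0 had a range of 2 or more, beside 4.68% of all expressed genes. The adenine nucleotide carriers Slc25a5 and Slc25a4, which exchange ATP for ADP and can also leak protons, had medians of 202 and 82.6 FPKM, below Ucp2. Slc25a11, the oxoglutarate carrier, had 65.8 FPKM and Slc25a30 4.02 FPKM. The brain-type relatives were low, Slc25a14 (UCP5) at 1.35 FPKM and Slc25a27 (UCP4) at 0 to 29 counts.

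Ucp3, the muscle and brown fat form, was read at a low level. The FPKM was 1.498 in S23, 1.26 in S21, 1.17 in S12 and 1.01 in S13, followed by 0.951 in S10 and 0.611 in S20, from 94 to 282 counts. S20 was lowest and S23 highest, a 2.45-fold difference, and both kept these places under TMM, median-ratio and common-sum scaling. Count intervals were separate in 7 of 15 pairs of libraries. The range of 0.63 in log2(FPKM + 1) was exceeded by 67.4% of expressed genes, and it was 0.36 without S20. At this level the range depends on the pseudocount, and with 0.1 in place of 1 it was 1.17, against 0.99 for Ucp2.

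Ucp3 did not follow the skeletal muscle genes. Ckm, the muscle creatine kinase, was at 28.1 FPKM in S12 but 0.207 in S23, and Acta1, skeletal actin, at 33.8 and 0.307 FPKM, while Ucp3 was at 1.17 and 1.498 FPKM. Mb (myoglobin) had 370 counts in S12 and 0 in S23. Summed over the 8 measured muscle genes the libraries ran from 13.8 FPKM in S20 to 144.5 FPKM in S12, with S23 at 17.2 FPKM. Thus S20 was lowest for both Ucp3 and the muscle sum, and S23, highest for Ucp3, was near the bottom of the muscle sum. In the RefSeq table Ucp3 and Ucp2 are neighbours, with Ucp3 first on the same strand. The ratio of Ucp2 to Ucp3 FPKM was 327 in S23, 452 in S10, 474 in S21, 591 in S13, 693 in S12 and 1400 in S20. Ucp2 and Ucp3 thus had opposite extremes in S20, where Ucp2 was highest and Ucp3 lowest.

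**Figure D2:**
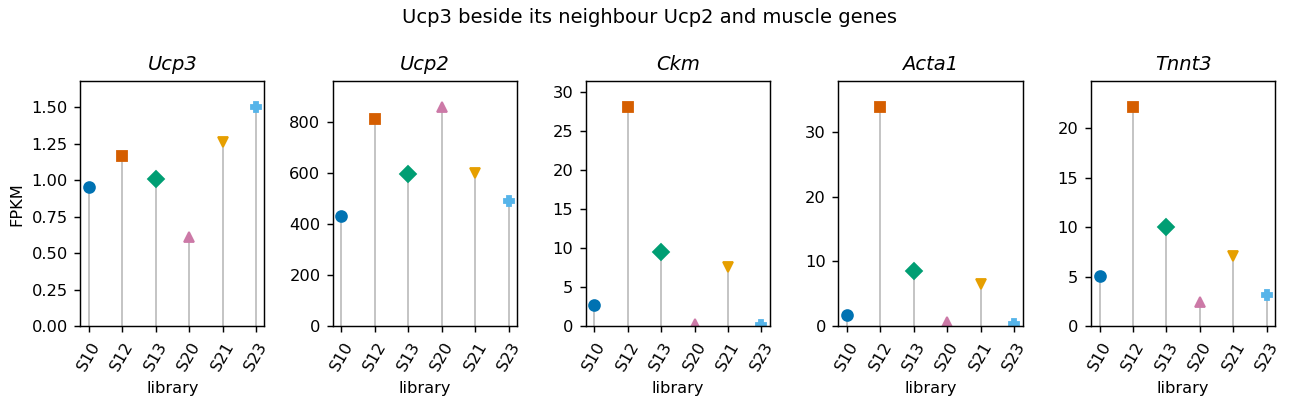
FPKM (linear axes, each from 0) of Ucp3, its chromosomal neighbour Ucp2 and the muscle genes Ckm, Acta1 and Tnnt3. Each symbol with its line is 1 library. Ucp3 is highest in S23 at 1.498 FPKM, where Ckm has 0.207 FPKM, and lowest in S20, where Ucp2 is highest.

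Both beta receptors of the set were scarce. Adrb1, the receptor best known from the heart, was read with 53 counts in S12 (0.780 FPKM), 38 counts in S13 (0.454), 25 counts in S20 (0.392), 24 counts in S21 (0.254), 12 counts in S10 (0.183) and 11 counts in S23 (0.148). S12 was the highest and S23 the lowest, 5.26-fold apart. The interval of S12, 0.584 to 1.02 FPKM, was separate from those of S10, S20, S21 and S23 and overlapped that of S13, and over all libraries 6 of 15 pairs were separate. With a common sum of FPKM the lowest library for Adrb1 was S10.

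Adrb3, the receptor of adipocytes, was read with 70 counts in S20 (0.723 FPKM), 63 counts in S10 (0.667), 59 counts in S12 (0.571), 69 counts in S13 (0.539), 39 counts in S23 (0.340) and 43 counts in S21 (0.303). S21 and S23 were low and did not differ beyond counting error, and the other 4 were close together. Highest and lowest were 2.38-fold apart, with 6 of 15 pairs separate. Adrb3 did not peak in S12, the library with the highest summed FPKM of the 9 measured adipocyte markers, where Adrb1 did. Its highest library was S20 in the deposited values and S10 under TMM and median-ratio scaling.

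The 6 alpha-adrenergic receptors were scarce too, and 0 of them were expressed, beside 52.7% of all annotated genes. Adra2a had 0.225 to 0.446 FPKM, and Adra1a, Adra1b, Adra1d, Adra2b and Adra2c each had a median under 0.1 FPKM. The plot with counting intervals sets Adrb1 and Adrb3 beside Ucp2, Ucp3 and Cidea.

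**Figure D3:**
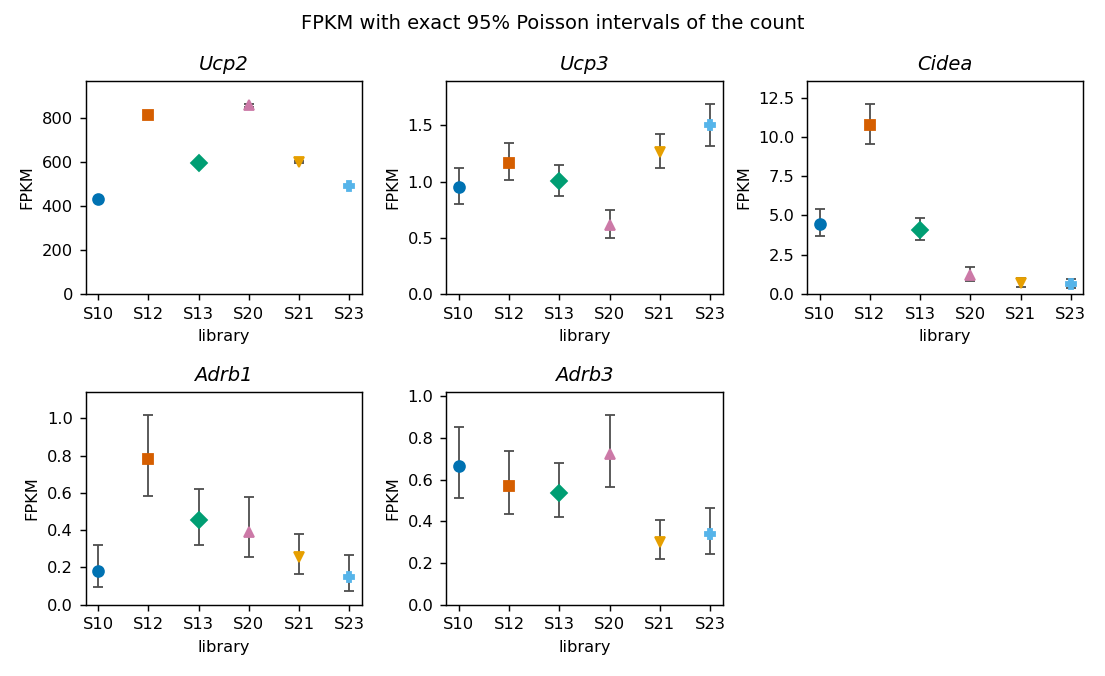
FPKM (linear axes from 0) of Ucp2, Ucp3, Cidea, Adrb1 and Adrb3 in each library. Bars are exact 95% Poisson intervals of the count, carried to the FPKM scale, and cover counting error only. Adrb1 reaches 0.780 FPKM in S12 and Adrb3 0.723 FPKM in S20, both far below Ucp2.

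Nearly all listed genes of the signalling chain below the beta receptors were expressed, 14 of 15, beside 52.7% of all annotated genes. The exception was the adenylyl cyclase Adcy9 at 0.826 FPKM. Gnas (the stimulatory G protein) had 109 FPKM and Prkar1a (a protein kinase A regulatory subunit) 103. Arrb2 (beta-arrestin) had 96.2 FPKM and Grk2 (the kinase that turns the receptors off) 82.3. Most of these genes serve many receptors, so their levels are not specific to adrenergic signals. In 13 of the 14 the lowest library was S10, beside 60.1% of all expressed genes. With TMM and median-ratio scaling S10 was lowest in 10 and 8 of the 14, beside 32.8% and 31.9% of all such genes.

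Fat breakdown genes, the targets of this chain in adipocytes, were highest in S12. All 6 were expressed, from 2.06 FPKM for Plin1 to 25.5 FPKM for Abhd5, beside 52.7% of all annotated genes. Of the 6, 5 were highest in S12, beside 26.6% of all expressed genes. The counts were 4 of 6 with TMM or median-ratio scaling, beside 13.4% and 13.8%. Lipe, the hormone-sensitive lipase, reached 13.4 FPKM in S12, against 2.01 to 4.17 FPKM in the other libraries. Pnpla2, the lipase that starts fat breakdown, had 22.3 FPKM in S12 and 7.96 to 10.7 FPKM elsewhere. Abhd5, its coactivator, was the exception and was highest in S23 at 34.4 FPKM.

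Ppargc1a, the coactivator that drives mitochondrial growth, was at the edge of detection. It had 0 counts in S10 and S20, 8 in S13, 9 in S12, 9 in S23 and 10 in S21, with at most 0.0682 FPKM. None of the counts above 0 differed from another beyond its interval, which for 9 counts runs from 4.12 to 17.1. Its relative Ppargc1b had a median of 0.304 FPKM, from 4 counts in S10 to 109 in S12, and Pprc1, the third of the family, 3.51 FPKM. Of 12 measured partners and relatives 8 were expressed, beside 52.7% of all annotated genes. They included Tfam, which maintains mitochondrial DNA, at 21.9 FPKM, the respiratory factor Nrf1 at 20.3, the estrogen-related receptor Esrra at 15.8 and Gabpa at 9.30 FPKM. Tfam was even, from 20.4 to 23.1 FPKM. Esrrg and Esrrb, partners of PGC-1alpha in oxidative tissues, had at most 10 and 3 counts in a library.

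Prdm16, the brown fat fate regulator, was read with 34 counts in S12, 20 counts in S13, 12 counts in S20, 6 counts in S21, 2 counts in S23 and 0 in S10. S12 was highest at 0.0854 FPKM, with an interval of 0.0592 to 0.119 FPKM, separate from those of S20 (0.0171 to 0.0577), S21 (0.00406 to 0.0241) and S23 (0.000485 to 0.0145) and overlapping that of S13. The libraries fell in the same order for Prdm16 as for Cidea, S12 first and S23 last, only when S10 was left out. In S10 Cidea had 4.49 FPKM, its second highest value. Without S10, Adrb1 and the adipocyte gene Plin1 fell in this order too, so it was not particular to Prdm16 and Cidea. Neighbours in this order overlapped for Prdm16. The length implied by the counts and FPKM of Prdm16 was 8919 to 10792 bases. S10 was low for long transcripts in general: over 221 genes of 8000 or more bases its median deviation was -0.67 in log2(FPKM + 1), against 0.10 over 1534 genes under 1000 bases. The corresponding values in S12 were 0.49 and -0.12. S10 also had 0 counts for 345 annotated genes that were read in the other 5 libraries, against 51 to 85 such genes for each of the others. The part of length in the Prdm16 values was not tested.

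Of the relative and partners of PRDM16, 6 of 8 were expressed, beside 52.7% of all annotated genes. The corepressor Ctbp1 had 159.6 FPKM, Ctbp2 6.92, the methyltransferase Ehmt1 6.17 and Cebpb 3.95 FPKM, all broadly used factors. Mecom, the close relative of Prdm16 active in blood stem cells, had a median of 0.0960 FPKM, and Ebf2, a brown fat selector, at most 14 counts.

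Thyroid hormone genes around the deiodinase step were unevenly present. The receptor Thra had 12.9 FPKM and the amino acid and thyroid hormone transporter Slc16a10 15.2 FPKM, while the receptor Thrb had 0.402 FPKM. Dio1, which activates thyroid hormone in liver and kidney, had 3 counts in S12, 3 in S21 and 0 in the other libraries. Slco1c1, a transporter of the blood-brain barrier, was at 0 throughout.

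Of the 3 expressed genes of the set Cidea had the widest range, and like most of the fat genes it was highest in S12. The values were 10.8 FPKM in S12 (282 counts), 4.49 in S10 (108 counts), 4.07 in S13 (132 counts), 1.21 in S20 (30 counts), 0.710 in S21 (26 counts) and 0.622 in S23 (18 counts). S12 stood alone at the top, S10 and S13 were close together, and S20, S21 and S23 were low with overlapping intervals. Count intervals were separate in 11 of 15 pairs. The highest library was 17.3-fold above the lowest, a range of 2.86 in log2(FPKM + 1), and 16.2-fold with TMM scaling. Of the 3 expressed genes of the set 1, Cidea, had a range of 2 or more, beside 4.68% of all expressed genes, and 1.2% had a larger range than Cidea. Without S12 the range was 1.76, under that threshold.

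**Figure D4:**
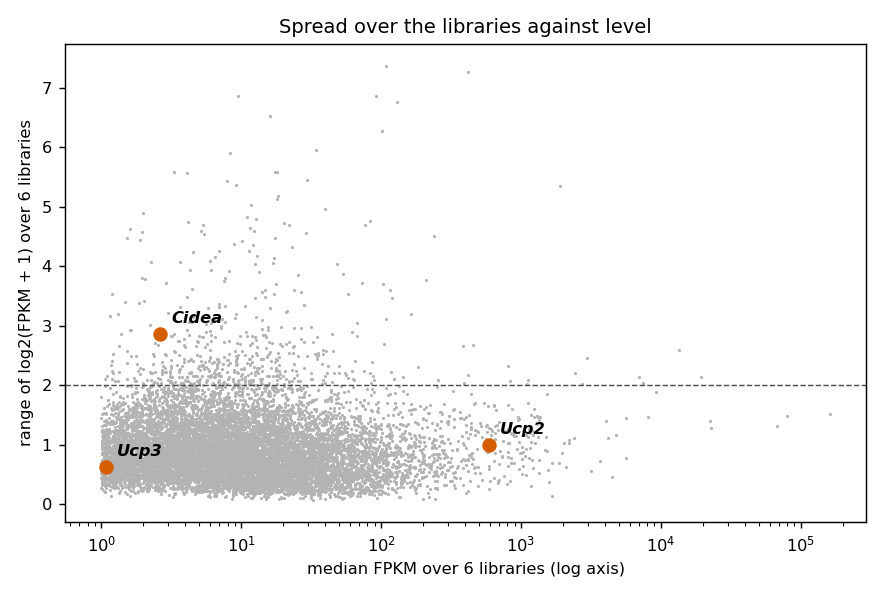
Range of log2(FPKM + 1) over the 6 libraries against median FPKM (log axis) for the 11625 expressed genes (grey points), with Cidea, Ucp2 and Ucp3 in orange. The dashed line marks a range of 2. Cidea lies above it at 2.86, and Ucp2 at 0.99 and Ucp3 at 0.63 lie below.

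Most genes of fat cells had their peak in the same library. Of 8 expressed adipocyte markers, 6 were highest in S12, beside 26.6% of all expressed genes, and 7 had a range of 2 or more, beside 4.68%. The counts highest in S12 were 5, 5 and 7 of 8 with TMM, median-ratio and common-sum scaling, beside 13.4%, 13.8% and 25.2%. Cidec, the relative of Cidea that makes the large droplets of white fat, ran from 19.2 FPKM in S12 down to 0.205 in S23, a 93.5-fold difference. Adipoq (adiponectin) differed 65.3-fold, from 62.5 to 0.957 FPKM, and Plin1, which coats the droplets, 107-fold. These 3 spread wider than Cidea, while Fabp4 (4.36-fold) and Lpl (8.10-fold) spread less. Retn, the resistin gene, was the exception at the other end, highest in S23 at 148 FPKM against 42.2 FPKM in S12. Cideb, the liver form, had a median of 0.209 FPKM.

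The amount of Cidea relative to other fat genes was not constant. Its FPKM was 17.2% of that of Adipoq in S12, 23.2% in S10, 26.9% in S13, 14.5% in S20 and 11.6% in S21, and 64.9% in S23, where Adipoq had 78 counts and Cidea 18. Relative to Cidec it was likewise highest in S23, at 303%, against 56.2% in S12. Relative to Fabp4 it was instead highest in S12, at 3.49%, against 0.809% in S23. The values relative to Cdo1 were 21.8% in S12, again the highest, and 10.3% in S23. The place of S23 thus depended on the gene compared. Muscle genes were also highest in S12, all 6 of the expressed ones, beside 26.6% of all expressed genes, and 7 of 7 with TMM scaling, beside 13.4%. The part of fat or muscle tissue in the Cidea values was not tested.

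By a search over all expressed genes with a name, the profiles nearest to Cidea were those of Cdo1, a cysteine-degrading enzyme, Aqp7 and Agt. The measure was the root mean square difference of log2(FPKM + 1), centred on each gene's median, over the 6 libraries, and it was 0.172, 0.281 and 0.329. Aqp7 is the glycerol channel of adipocytes and Agt encodes angiotensinogen, which liver and fat make. Aqp7 had 4.28 FPKM in S12 and was listed at 0 in S23. All 3 were found again with TMM scaling. The nearest to Ucp2 were Ddb1 (0.030), Sppl2b (0.044) and Taf9b (0.049), and to Ucp3 Pef1 (0.042), Pctp (0.047) and Cd37 (0.049). With TMM scaling 1 of the 3 was found again for Ucp2 and 0 for Ucp3. With 6 libraries and many genes of small range, such near profiles are a description only.

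**Figure D5:**
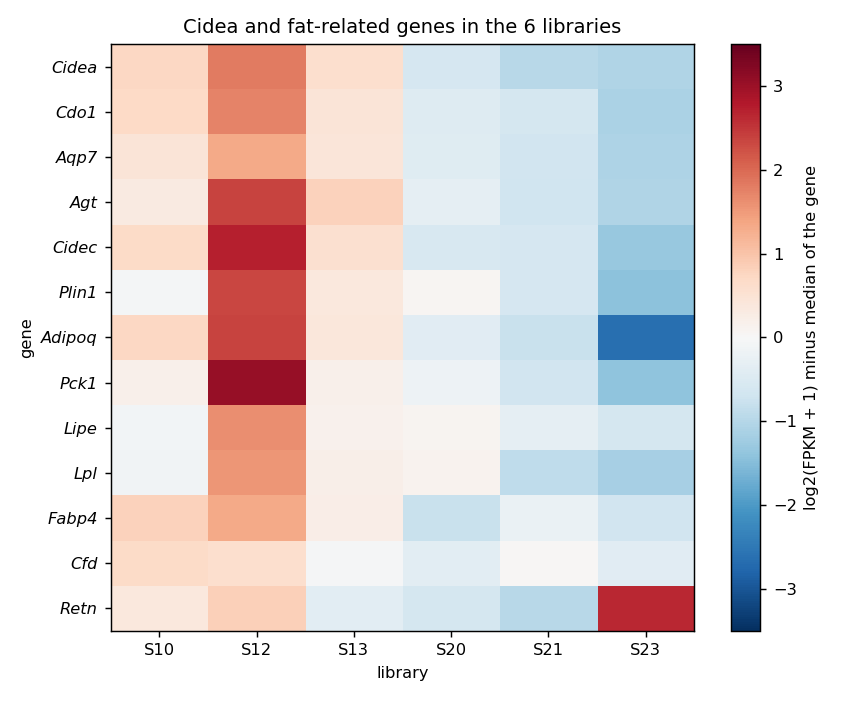
Log2(FPKM + 1) of Cidea, its 3 nearest profiles (Cdo1, Aqp7, Agt) and 9 adipocyte or fat breakdown genes, each relative to the median of that gene (red above, blue below). Rows are genes and columns are libraries. S12 is the reddest column for all rows except Cfd, highest in S10, and Retn, highest in S23.

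Other markers of brown fat were absent or nearly so beside Cidea. Of 10 brown fat genes, Ucp1 included, 0 were expressed, beside 52.7% of all annotated genes. Of the 10, 5 (Ucp1, Elovl3, Cox8b, Zic1 and Lhx8) were without a count, beside 20.6% of all annotated genes. The sum of the 10 was 1.08 to 1.40 FPKM, with Fabp3 at a median of 0.681 and Cpt1b at 0.563 FPKM making up most of it, both also genes of muscle. Cox7a1, a cytochrome oxidase subunit of brown fat and muscle, had 3 to 11 counts. In S12, where Cidea had 282 counts, the sum was 1.31 FPKM. Of 6 beige fat genes 2 were expressed, Pank1 at 2.12 and Shox2 at 1.82 FPKM, beside 52.7% of all annotated genes. Neither had a range of 2, which 4.68% of all expressed genes reached. Cited1 had 0.782 and Tmem26 0.527 FPKM, the latter with 0 counts in S10 and 55 in S12.

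Routes to heat without UCP1 and signals to fat were also surveyed. Ckb, the creatine kinase of the creatine cycle, had a median of 140.2 FPKM, and Gatm, which acts in creatine synthesis, had 30.2 FPKM. The calcium pump Atp2a2 ran from 11.5 FPKM in S10 to 30.8 in S20, and the glycerol kinase Gk had a median of 3.85 FPKM. Sln (sarcolipin), the muscle partner of the pumps, had 4 counts in S12 and 0 elsewhere, and Ckmt1 had 0 in all 6. Of 8 secreted signals and receptors 2 were expressed, beside 52.7% of all annotated genes. These were Vegfa at 6.92 and the natriuretic peptide receptor Npr1 at 6.75 FPKM. Nrg4 had 0.435 and Bmp7 0.285 FPKM.

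Sympathetic nerve genes gave little transcript for noradrenaline synthesis. Th and Dbh, the tyrosine and dopamine hydroxylases, were at 0 counts throughout. The cell bodies of these nerves lie outside the bone. Npy, a transmitter of these nerves, had 51.0 to 72.8 FPKM, and Slc18a2, which loads vesicles, had a median of 2.93 FPKM, both known from blood cells too. Ddc had 0.876 FPKM, and Slc6a2, the noradrenaline uptake carrier, had 0 counts in S23 and 134 in S12.

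Across the 6 libraries total counts were 39990624 to 59200981. Of 7 osteoblast genes checked against the label of bone, 7 were expressed, beside 52.7% of all annotated genes. Their sum was 1261 (S23) to 1720.0 FPKM (S10). Among the genes of the set that were read at all, Adrb1, Prdm16 and Cidea were highest in S12, Ucp2 and Adrb3 in S20 and Ucp3 in S23. Ppargc1a had no library above the others beyond its intervals. The share highest in S12 was not counted for genes under a median of 1 FPKM, such as Adrb1 and Prdm16. Of the 3 expressed genes of the set 1 was highest in S12, beside 26.6% of all expressed genes. TMM and median-ratio scaling moved the median of all expressed genes by 0.34 and 0.35 in S10 and by -0.19 in S12 on the log2 scale, and S12 stayed the highest library for Adrb1 and Cidea.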

How the data were processed

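The deposited table of 30610 rows gave a count and an FPKM column for each of 6 libraries. Each deposited count is a raw whole number. FPKM columns hold the authors' normalized values, per the file headers, and summed to 811992 to 1047309. No aligner or counting tool is given in the sources used here, and the builds in the submitters' processing notes (GRCm38, mm10) are mouse builds beside rat gene IDs. Per the labels' protocols, RNA came from an RNeasy kit and libraries from a SMARTER kit. Without 10 rows that held no values, 22050 annotated genes and 8550 other loci remained.

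Genes were matched by name, taking the row of higher median where a name had several (Gnas). Level was the median FPKM, spread the range of log2(FPKM + 1), and intervals were exact 95% Poisson intervals (SciPy 1.17.1). No test was made, since all libraries are unassigned, and whether they are separate animals is not stated. The genes and lists were chosen with earlier results of these data known. Named beside the 9 genes were up to 4 members per list with the highest medians, list members at 0 counts, and the 3 nearest profiles, without genes named only by clone or locus. Others (Slc25a14, Slc25a27, low adrenergic receptors, Adcy9, Lipe, Plin1, Cidec, Lpl, Ppargc1b, Pprc1, Esrrb, Esrrg, Mecom, Dio1, Sln, Slc6a2, Acta1, Mb, Pck1, Epb42, Tfrc, Mpo, Cxcr2, Cd3d, Cd3e, neighbours of Ucp1) and the counts highest in S12 or lowest in S10 were chosen after their values were seen. Scaling factors came from edgeR 4.0.16 (TMM) and DESeq2 1.42.0 (median ratio). The range was tested on simulated counts without the length trend seen in S10. The profile search was checked only with exact copies of a profile at another level, which had to be found. Some genes of the lists are not reported here.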

Additional observations from a re-analysis of the deposited data

How the results depend on the processing

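The number of genes of the set with a median of at least 1 FPKM was 3 under TMM, median-ratio and common-sum scaling and with each library left out. At a minimum of 0.5 FPKM it was 4, with Adrb3 added. The number with a range of 2 or more was 1 (Cidea) under the 3 scalings and with a pseudocount of 0.1. With 1 library left out it was 0 to 1, and it was 0 without S12, because the highest Cidea value was then missing. The range of Ucp3 was 1.17 with a pseudocount of 0.1 and 0.36 without S20. The range of Ucp2 was 0.75 to 1.36 under the scalings, with the lowest library in S23 under TMM and median-ratio scaling. The nearest profiles did not change with a minimum of 0.5 FPKM or none. TMM scaling for these profiles was added after the data were seen. Low counts, as for Adrb1, Adrb3, Ppargc1a and Prdm16, leave intervals too wide to order most libraries. With no group given, none of the spread can be assigned to temperature.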
